A study of Mus musculus with 3 samples.

Results

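The 10 genes described here encode matrix proteins and regulators of bone mineral: *Spp1*, *Bglap*, *Bglap2*, *Ibsp*, *Dmp1*, *Phex*, *Mepe*, *Alpl*, *Mgp* and *Sparc*. They were picked by symbol from the 32285 genes in the count tables, whatever their counts, and all 10 symbols were present. The study profiled dissociated cochleae of C57/B6 mice by single-cell RNA sequencing at postnatal day 14 (P14) and day 28 (P28), after the temporal bone around the inner ear has calcified. P14 had a single library and P28 a pair (replicates 1 and 2), each made from the pooled 14 cochleae of 7 mice, and the labels name no treatment or mutation in any of them. The paper states that the bony wall of the cochlea was taken off with forceps before the soft tissue was isolated. Cells were freed with collagenase and strained, and the labels name no separate sample of the otic capsule. How much bone stayed with the tissue of each library was not measured.

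Bone is laid down as a collagen matrix in which mineral is then seeded and held in check. Osteoblasts and osteocytes secrete acidic phosphoproteins that bind calcium, vitamin K dependent Gla proteins that bind mineral, and enzymes that remove the mineral inhibitor pyrophosphate or cleave the phosphoproteins. The otic capsule is the bony shell of the inner ear, known for being remodelled very little once formed, and several of the same proteins are made in soft tissues, where they keep mineral from forming.

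A unique molecular identifier (UMI) stands for 1 captured RNA molecule, and a level, written as CPM, is the gene's share of all UMIs in a group of cells, scaled to 1e6. Barcodes with 200 to 6000 genes and at most 15% mitochondrial UMIs were kept, which left 1662 at P14, 5651 in P28 replicate 1 and 7065 in P28 replicate 2, 14378 in all, with a median of 2037 to 2477 UMIs each. Between 4 and 10 kept barcodes were shared by any pair of libraries. Cells were clustered without the 10 genes and 32 related ones, and clusters were called "X-like" from fixed markers. The names are outer hair cell (OHC), inner hair cell (IHC), spiral ganglion neuron (SGN), Deiters and pillar cells (DC/PC), inner sulcus, Hensen and outer sulcus cells (ISC/HeC/OSC), Reissner's membrane (RM), tympanic border cell (TBC), and Schwann and satellite glial cells (SC/SGC). Clusters that failed the naming rule are given by their leading genes. The replicate libraries are pools of animals, and p-values below measure only the spread between the sums of these libraries.

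The 10 genes had very different reach. *Sparc* was found in 8473 of the 14378 cells and *Spp1* in 3806, whereas *Bglap* was found in 149, *Bglap2* in 152, *Ibsp* in 93 and *Mepe* in 8. *Mgp* had a UMI in 422 cells, *Dmp1* in 404, *Alpl* in 391 and *Phex* in 316. A small bone-forming cell-like cluster of 30 cells held 95.5% of the 9531 *Bglap* UMIs and 92.8% of the 5200 *Bglap2* UMIs. The same 30 cells held 30.9% of the *Ibsp*, 19.0% of the *Phex*, 18.0% of the *Dmp1* and 17.5% of the *Alpl* UMIs, but 2.21% of the *Sparc* UMIs, 0.583% of the *Spp1* UMIs and none of the *Mgp* UMIs. *Mepe* had 1 of its 16 UMIs there. Of the 10 genes, only *Bglap* and *Bglap2* thus had most of their UMIs in these cells. For *Ibsp* the share differed between libraries. In P28 replicate 2 the cluster held 92.8% of the *Ibsp* UMIs (710 of 765). The P14 library, which was clustered apart and had no cluster of this name, held 1519 of the 2297 *Ibsp* UMIs. Of these, 1291 were in 8 osteocalcin-rich cells described below.

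**Figure D1:**
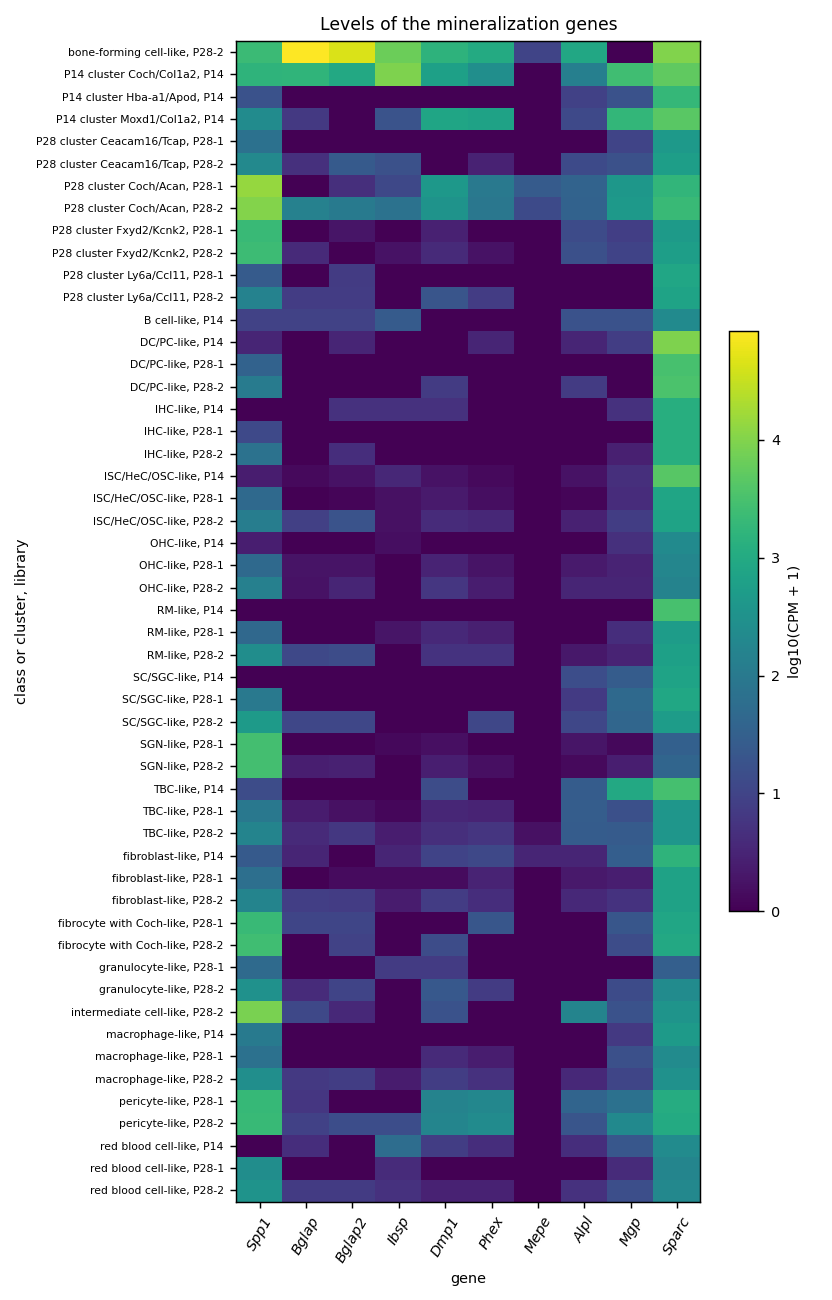
Level of each gene (columns) in each class or cluster and library with at least 10 cells (rows), coloured by log10(CPM + 1). *Bglap* and *Bglap2* are bright in the bone-forming cell-like row and the P14 cluster led by *Coch* and *Col1a2*, *Spp1* in several rows including SGN-like cells, and *Sparc* in almost every row.

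The genes lie partly side by side in the genome, in the build GRCm38. *Dmp1*, *Ibsp*, *Mepe* and *Spp1*, the small integrin-binding phosphoproteins of bone, stand on the forward strand within chr5:104202613-104441050, a stretch of 238 kb. *Bglap* (chr3:88383501-88384464) and *Bglap2* (chr3:88377736-88378699), both encoding osteocalcin, stand on the reverse strand 4801 bases apart, followed 4992 bases further on by *Bglap3*, the related osteocalcin gene outside the set. *Phex* lies at chrX:157162075-157415312, *Alpl* at chr4:137741733-137796384, *Mgp* at chr6:136872435-136875823 and *Sparc* at chr11:55394500-55423183, all on the reverse strand.

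The osteocalcin coding sequences are shown because their likeness limits how *Bglap* and *Bglap2* counts can be read. Each has 285 bases from the start codon, and capitals mark the bases that differ from *Bglap*.
Bglap: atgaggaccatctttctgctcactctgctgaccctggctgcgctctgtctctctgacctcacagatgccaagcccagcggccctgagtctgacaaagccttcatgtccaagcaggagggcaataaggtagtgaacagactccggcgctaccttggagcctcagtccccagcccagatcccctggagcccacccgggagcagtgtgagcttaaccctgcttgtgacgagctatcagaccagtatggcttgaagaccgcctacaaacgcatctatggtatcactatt
Bglap2: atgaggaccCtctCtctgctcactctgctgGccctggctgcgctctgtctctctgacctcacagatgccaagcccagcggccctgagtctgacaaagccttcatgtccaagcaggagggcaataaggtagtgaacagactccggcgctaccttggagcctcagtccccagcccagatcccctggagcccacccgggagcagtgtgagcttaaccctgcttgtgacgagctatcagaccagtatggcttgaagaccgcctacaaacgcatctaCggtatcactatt
Bglap3: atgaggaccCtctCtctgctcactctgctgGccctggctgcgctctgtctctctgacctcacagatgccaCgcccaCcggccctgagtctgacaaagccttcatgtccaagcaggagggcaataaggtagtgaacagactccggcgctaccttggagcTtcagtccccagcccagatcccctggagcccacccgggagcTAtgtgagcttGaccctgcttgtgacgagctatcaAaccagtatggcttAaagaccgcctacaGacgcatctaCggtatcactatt
*Bglap2* differed from *Bglap* at 4 bases (98.6% identity) and *Bglap3* at 13 (95.4% identity). The last 149 bases of the *Bglap* and *Bglap2* reference transcripts were the same, and 60.4% of all 90-base stretches of the *Bglap* transcript also occurred in *Bglap2*, against 0 in *Bglap3*. The library kit reads the 3′ ends of RNA, and a read lying wholly within those 149 bases cannot be assigned to either gene by its letters. The paper aimed for reads longer than 90 bases, for which the shared part was not computed. The division of osteocalcin UMIs between the 2 genes is therefore uncertain, and their sum is given beside the separate counts. Cell Ranger counts only reads assigned to a single gene, so the sum can be too low as well.

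The bone-forming cell-like cluster was led by *Col1a1*, *Smpd3* and *Col1a2*, and all 8 of its fixed markers, *Sp7*, *Runx2*, *Dlx5*, *Ifitm5* and *Col24a1* among them, had a UMI in at least 5% of its cells. Of the 6 cartilage markers, *Acan*, *Matn3*, *Comp* and *Snorc* were at 0 there. The others, *Col2a1* and *Col9a1*, were each in at least 5% of cells, at a summed 4712 CPM, and *Col2a1* was among the leading genes. Also at 0 were *Acp5*, *Mmp9*, *Atp6v0d2*, *Dcstamp* and *Ocstamp*, 5 of the 6 markers of the bone-resorbing osteoclast. *Ctsk*, the sixth, had 10 UMIs in 7 cells. Of its 30 cells, 29 came from P28 replicate 2 and 1 from P28 replicate 1. P14 cells were clustered apart, and no P14 cluster was given this name. With 1 cell in one P28 library and 29 in the other no test was possible, and the values below rest on P28 replicate 2.

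Osteocalcin dominated these cells. A bone-forming cell-like cell held from 53 to 875 *Bglap* UMIs (median 230.5) and from 28 to 466 *Bglap2* UMIs (median 103). Summed over both genes, osteocalcin UMIs ran from 96 to 1271 per cell (median 332.5), which came to 128434 CPM over the 30 cells. No cell of the cluster was without either gene, and the single cell of P28 replicate 1, with 87 *Bglap* and 39 *Bglap2* UMIs, lay within the range of the others. That cell, of 1128 UMIs in all, also had 19 of *Sparc* and 15 of *Col1a1*. It had 0 of *Ibsp*, *Alpl*, *Dmp1*, *Phex*, *Spp1*, *Ifitm5* and *Sp7*.

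*Ibsp* encodes bone sialoprotein, an acidic phosphoprotein that seeds mineral on collagen. It had 0 to 110 UMIs per bone-forming cell-like cell (median 11.5) and was present in 29 of 30. *Alpl*, the tissue-nonspecific alkaline phosphatase that hydrolyses pyrophosphate, had 0 to 12 UMIs (median 2) and was present in 26. *Sparc*, the collagen-binding glycoprotein osteonectin, had 3 to 127 UMIs (median 27) and was present in all 30. These 3 genes were thus spread over nearly the whole cluster.

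The genes best known from the osteocyte, the cell buried in bone, were found in only some of the cells. *Dmp1*, an acidic phosphoprotein of osteocytes, had up to 57 UMIs in 13 of 30 cells, and *Phex*, a membrane endopeptidase that acts on this family of phosphoproteins, up to 18 UMIs in 19. Both were found together in 7 cells. *Mepe*, a phosphoprotein of osteocytes that carries a mineral-binding peptide, had 1 UMI in the cluster.

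*Spp1* was uneven among the cells of the cluster and *Mgp* was not detected in them. *Spp1* encodes osteopontin, an acidic phosphoprotein that binds mineral and slows its growth. It had no UMI in 14 of the 30 cells and a median of 1, and 3 cells with 35, 71 and 91 UMIs held most of its 248 UMIs. *Mgp* encodes matrix Gla protein, an inhibitor of calcification in cartilage and vessel walls. The 30 cells held no UMI of it, and a count of 0 allows up to 28.0 CPM in P28 replicate 2, counting error only.

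**Figure D2:**
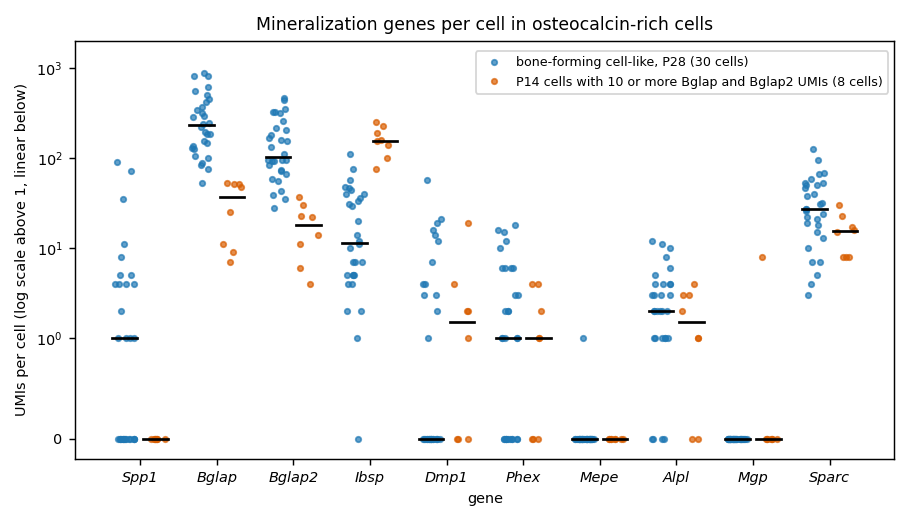
UMIs of each gene per cell (vertical axis, logarithmic above 1 and linear below) in the 30 bone-forming cell-like cells of P28 and in the 8 P14 cells with at least 10 osteocalcin UMIs, with 1 point per cell and a black line at the median. The *Ibsp* points of the P14 cells, 75 to 253 UMIs, lie mostly above those of the P28 cells, and *Spp1* is at 0 in all 8 P14 cells.

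Other ways of clustering moved the edge of the cluster, to 30 to 50 cells in P28 replicate 2 and 2 to 10 in replicate 1. A mitochondrial limit of 30%, which admits more barcodes, gave 76 and 10. In the 6 alternatives the cells of the cluster with at least 10 osteocalcin UMIs held 0 to 2 *Mgp* UMIs, but the cluster as a whole could hold more. With a resolution of 2 it took in 60 cells, of which those 33 cells held 2 *Mgp* UMIs and the other 27 held 93, and its *Mgp* level in P28 replicate 2 became 506 CPM.

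At P14 no cluster was named bone-forming, but 8 of the 87 cells in an unnamed cluster led by *Coch* and *Col1a2* had at least 10 osteocalcin UMIs (13 to 85). These cells were picked by those UMIs, so their osteocalcin is a selection and not a result. They carried *Ifitm5*, which marks bone-forming cells, in 8 of 8, *Sp7* and *Runx2* each in 6, and *Col1a2* at 10 to 74 UMIs beside 0 or 1 UMI of *Col1a1*. *Coch*, which marks fibrocytes, ran from 15 to 73 UMIs in them, against 0 to 4 in the bone-forming cell-like cells of P28.

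*Ibsp* was abundant in the P14 cells. Each of the 8 held 75 to 253 *Ibsp* UMIs (median 155.5), or 83587 CPM over the 8 cells, and the P28 bone-forming cell-like cells had 6547 CPM. The ranges overlapped in UMIs, since the highest P28 cell had 110. *Spp1* was at 0 in all 8 P14 cells, where the 15445 UMIs of these cells allow up to 194 CPM. *Mgp* had 8 UMIs in 1 of the 8, *Dmp1* and *Phex* were each found in 5, *Alpl* in 6, and *Sparc* ran from 8 to 30 UMIs. The other 79 cells of the P14 cluster held *Spp1* at 1791 CPM in 30 cells and *Mgp* at 2779 CPM in 32 cells, with *Ifitm5* at 0. *Sparc* was in 56 of them, *Dmp1* in 18, *Phex* in 13 and *Ibsp* in 9, with 195 *Ibsp* UMIs, and 3 of them held 4 osteocalcin UMIs.

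Over whole libraries, these groups included, at least 1 osteocalcin UMI was found in 20 of 1662 cells at P14, 20 of 5651 in P28 replicate 1 and 192 of 7065 in P28 replicate 2. Of these cells 11 at P14 lay in the cluster led by *Coch* and *Col1a2*, and 1 and 29 at P28 were bone-forming cell-like. At least 10 osteocalcin UMIs were found in 8, 1 and 36 cells. The 7 such cells of P28 replicate 2 outside the bone-forming cell-like cluster (4 in the cluster led by *Coch* and *Acan*, 2 ISC/HeC/OSC-like and 1 TBC-like) had 10 to 29 osteocalcin UMIs and neither *Ibsp* nor *Ifitm5*. In 3 of them *Bglap2* was present without *Bglap*.

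Promoter sequence was read from the 250 bases before RefSeq transcript starts (build GRCm38.p6). Of the 10 genes, 8 had an entry, with 11 starts between them, and *Bglap2* and *Mgp* had none. The letters ACCACA, bound by RUNX factors, were searched on both strands and the TATA box letters TATAAA on the gene's strand, and capitals mark matches. The 4 promoters shown belong to a gene nearly confined to the bone-forming cell-like cells, to the other phosphoproteins seen in those cells, and to *Spp1*, which was mostly outside them.
Bglap, chr3:88384467-88384716, reverse strand: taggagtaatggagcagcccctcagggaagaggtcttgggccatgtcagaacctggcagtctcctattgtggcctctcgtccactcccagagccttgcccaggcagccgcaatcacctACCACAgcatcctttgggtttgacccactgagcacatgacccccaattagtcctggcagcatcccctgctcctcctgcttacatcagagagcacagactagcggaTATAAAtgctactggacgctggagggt
Ibsp, chr5:104299037-104299286, forward strand: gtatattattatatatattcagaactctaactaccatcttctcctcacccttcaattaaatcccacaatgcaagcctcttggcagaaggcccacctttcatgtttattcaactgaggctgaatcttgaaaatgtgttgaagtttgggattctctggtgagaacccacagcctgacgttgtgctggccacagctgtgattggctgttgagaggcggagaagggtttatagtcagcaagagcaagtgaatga
Dmp1, chr5:104202367-104202616, forward strand: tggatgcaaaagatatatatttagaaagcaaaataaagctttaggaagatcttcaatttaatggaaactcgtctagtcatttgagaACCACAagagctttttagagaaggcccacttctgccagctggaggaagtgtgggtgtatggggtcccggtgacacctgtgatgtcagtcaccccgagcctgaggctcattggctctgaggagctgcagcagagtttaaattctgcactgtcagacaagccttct
Spp1, chr5:104434861-104435110, forward strand: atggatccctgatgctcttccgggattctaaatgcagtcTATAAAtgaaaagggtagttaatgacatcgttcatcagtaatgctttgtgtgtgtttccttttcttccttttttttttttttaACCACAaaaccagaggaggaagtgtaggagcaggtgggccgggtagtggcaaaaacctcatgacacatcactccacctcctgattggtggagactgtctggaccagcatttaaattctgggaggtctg
ACCACA began 132 bases before the *Bglap* start, 164 before this *Dmp1* start and 128 before this *Spp1* start, and was not in the *Ibsp* window. TATAAA began 27 bases before the *Bglap* start and 211 before the *Spp1* start. Of all 32851 promoter windows of this length, 14.0% held ACCACA and 7.59% held TATAAA. Among the 10 genes, 4 held the first and 2 the second in some window, and *Mepe* held ACCACA at 118 and 80 bases. The matches did not separate the genes by where they were found.

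To compare cell types, the UMIs of each class were summed within a library and set against the sum of all other cells of that library. Classes with at least 10 cells in every library were tested over 3 libraries with a term for the library, and the rest over the 2 P28 libraries. The sums were fitted with edgeR, and every adjusted p below comes from its quasi-likelihood test, adjusted over all genes by the Benjamini-Hochberg procedure. In the 10 classes with 3 libraries, 82 of 100 gene and class pairs passed the filter on low counts. Of these 4 were higher in the class and 58 lower, and over all genes 13.9% of pairs were higher and 18.2% lower. In the 4 named classes of P28 alone, 34 of 40 pairs were tested, 8 were higher and 9 lower, where all genes gave 14.6% and 17.9%. With the library as a block the 9 became 15 and the 8 became 9. Of 40 pairs in the unnamed P28 clusters, whose test was chosen after seeing the data, 35 were tested, 7 were higher and 4 lower, where all genes gave 9.81% and 13.7%. With the block these became 10 and 15. A filter of at least 10 UMIs in every sum, which tests fewer pairs, gave 2 higher and 4 lower calls in the classes with 3 libraries and 1 lower call in each set of P28 groups. With the study's narrower cell limits only 8 of the 10 classes with 3 libraries could be tested, and they gave 1 higher call. Shares over all genes are given for the main fit only. Counts from refits, here and below, have no such share beside them and are not read against it.

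The number of lower calls depended on the bone-forming cell-like cells, which were among the other cells of each comparison. *Bglap* was tested in 18 classes and called lower in 11, and higher in none. With those 30 cells left out, a choice made after seeing the data, *Bglap* could be tested in 15 classes, was lower in none and was higher in 1, the cluster led by *Coch* and *Acan*. *Bglap* still passed the low-count filter in those 15 classes, so its lower calls there had depended on these 30 cells. The same can hold for any gene with few UMIs in a class. Over the classes with 3 libraries the lower calls of all 10 genes fell from 58 to 36 without those cells, and the 4 higher calls stayed at 4.

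**Figure D3:**
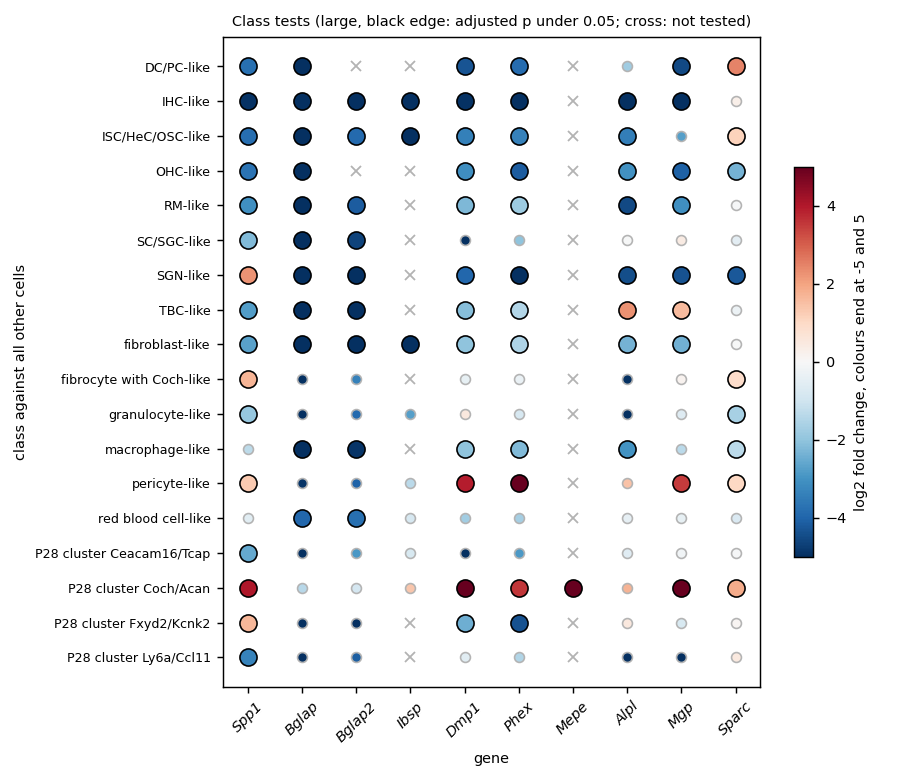
Each gene (columns) in each class against all other cells (rows), coloured by log2 fold change, with colours ending at -5 and 5. Large circles with a black edge have an adjusted p under 0.05 and crosses were not tested. Red circles gather in the pericyte-like row, with 5 genes, and in the row of the cluster led by *Coch* and *Acan*, with 6.

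In OHC-like cells all 7 genes tested were lower (30.3% of all genes tested there), and 5 of 6 were lower without the bone-forming cell-like cells. *Bglap*, *Phex*, *Alpl*, *Dmp1* and *Mgp* had 3, 4, 6, 12 and 15 UMIs there over 3 libraries. Genes this low passed the filter mainly through the other cells. A lower call was then close to fixed in advance, so these counts are no result about the genes. OHC-like cells had at most 5.05 CPM of *Dmp1* and 2.16 CPM of *Alpl* in any library, and with red blood cell-like cells they served as the background level of RNA freed from other cells. For *Spp1* that background differed between libraries. It was found in 1.08% of OHC-like cells at P14, 10.2% in P28 replicate 1 and 19.0% in replicate 2, at medians of 6510, 5243.5 and 3752.5 UMIs per cell, and in 0, 27.7% and 32.98% of red blood cell-like cells, at medians of 4981.5, 3667 and 2572 UMIs. An *Spp1* share of this size at P28 was read as background.

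In the clustering reported here *Spp1* stood above that background in 7 groups at P28, of which the bone-forming cell-like cells had 2311 CPM in replicate 2. No cluster was named marginal cell-like in it, but other cell limits gave such a class, with the highest *Spp1* of the named classes. The cluster led by *Coch* and *Acan* had 14231 CPM in P28 replicate 1 and 10255 CPM in replicate 2, with a UMI in 92.5% and 91.2% of cells. SGN-like cells had 2897 and 2779.5 CPM, in 92.5% and 98.0% of cells. The order of these 2 groups was the same in both libraries and their ranges were apart. Cells with at least 1000 UMIs were also thinned to 1000, with shallower cells left out. The shares were then 92.3% and 91.0% in the cluster and 82.4% and 86.1% in SGN-like cells.

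Below them came fibrocyte with *Coch*-like cells with 2219 and 2648 CPM, the cluster led by *Fxyd2* and *Kcnk2* with 2212 and 2356 CPM, and pericyte-like cells with 1991 and 2118 CPM. The first 2 of these did not differ beyond the spread of the libraries. Red blood cell-like cells followed with 257 and 330.3 CPM, apart from all the groups above in both libraries. Intermediate cell-like cells, the pigment cells of the stria vascularis, could be measured in P28 replicate 2 only, with 8684 CPM in 66.0% of 141 cells, and 1 cell alone held 391 of the 3216 UMIs.

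In the test, *Spp1* was higher in the cluster led by *Coch* and *Acan* by 4.05 on the log2 scale (SE 0.21, adjusted p = 7.43e-08), in SGN-like cells by 2.26 (SE 0.25, adjusted p = 7.73e-05), in fibrocyte with *Coch*-like cells by 1.72 (SE 0.28, adjusted p = 0.000903), in the cluster led by *Fxyd2* and *Kcnk2* by 1.67 (SE 0.15, adjusted p = 1.32e-05) and in pericyte-like cells by 1.30 (SE 0.16, adjusted p = 0.000601). It was lower in 11 of the 18 groups. SGN-like cells carried *Spp1* and little else of the set: *Sparc*, at 31.3 and 40.1 CPM in the P28 libraries, was lower (log2 fold change -4.23, SE 0.14, adjusted p = 1.54e-07), and 7 of the 8 genes tested there were lower, against 41.6% of all genes. Without the bone-forming cell-like cells 5 of 8 were lower. Apart from *Sparc*, the genes called lower had 2 to 7 UMIs in SGN-like cells. They passed the filter mainly through the other cells, so their lower calls were close to fixed in advance. Of the 8 bone-forming markers 2 were in at least 5% of SGN-like cells, at a summed 51.8 CPM over all 8, and *Ifitm5* and *Dlx5* were at 0.

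**Figure D4:**
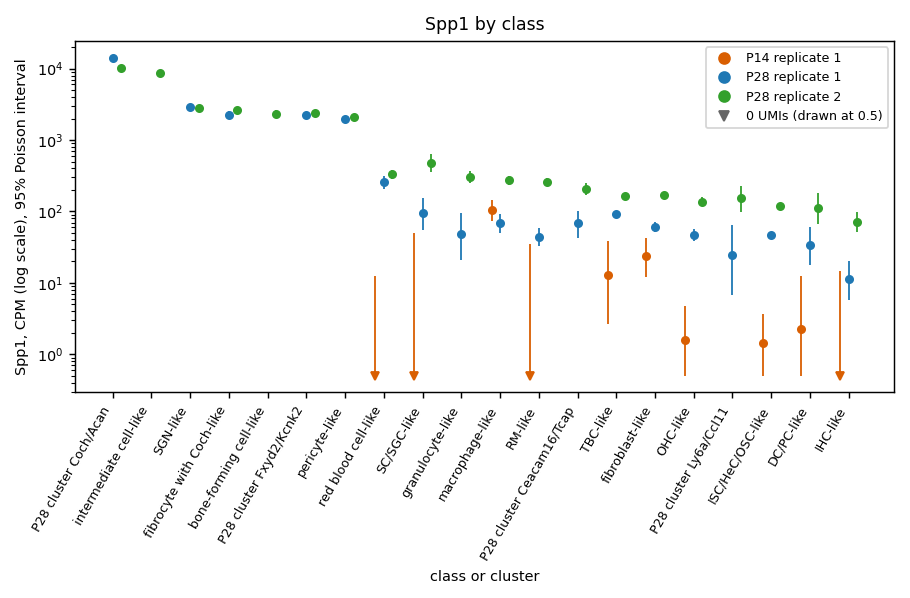
*Spp1* level in CPM (logarithmic axis) by class and library, with exact 95% Poisson intervals, triangles at 0.5 marking 0 UMIs. At P28 the cluster led by *Coch* and *Acan* stands highest at 14231 and 10255 CPM, SGN-like cells lie at 2897 and 2779.5 CPM, and OHC-like cells at 47.2 and 138 CPM.

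The cluster led by *Coch* and *Acan* held most of the set. It could not be named, since it had 4 of 5 markers of *Coch* fibrocytes and 3 of 6 cartilage markers in at least 5% of cells, beside 2 of 8 bone-forming markers. *Dmp1* was at 430 CPM in P28 replicate 1 and 344 in replicate 2, in 34.2% and 26.9% of cells, and *Mgp* at 394 and 470 CPM, in 17.1% and 18.5% of cells. *Sparc* was at 1751 and 2179 CPM and *Phex* at 95.9 and 87.5 CPM. Each of these lay above the level in all other cells in both libraries, 3.99 and 14.0 CPM for *Dmp1* and 6.42 and 13.2 CPM for *Mgp*.

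Of the 10 genes, all tested in that cluster, 6 were higher, where 8.45% of all genes were. *Dmp1* was higher by 5.42 on the log2 scale (SE 0.45, adjusted p = 3.36e-06), *Mgp* by 5.47 (SE 0.31, adjusted p = 1.38e-07), *Phex* by 3.56 (SE 0.52, adjusted p = 0.000303) and *Sparc* by 1.87 (SE 0.15, adjusted p = 2.40e-06), beside *Spp1* above. *Mepe* was also called (adjusted p = 0.000138), on 7 and 4 UMIs in 2 cells of each library, of which 1 cell held 6 and another 3, and on 4 UMIs in all other P28 cells. Its fitted fold depends on the prior count and is not given. *Mepe* passed the low-count filter in 1 of the 18 groups, this cluster. It entered the test through the group where it was high, so its call adds nothing to the comparison with 8.45%. Without the bone-forming cell-like cells 9 of 9 genes tested were higher, *Bglap*, *Bglap2*, *Ibsp* and *Alpl* among them, and *Mepe* was no longer tested. The share of all genes called higher in that refit is not given here. *Bglap* there rested on replicate 2, with 49 UMIs in 10 cells, and had 0 in replicate 1. Of the 49 UMIs, 35 were in the 4 cells with at least 10 osteocalcin UMIs, where *Col1a1* was found in 4 and *Sp7* in 3. *Bglap2* had 37 UMIs in 8 cells of replicate 2 beside 1 UMI in replicate 1. The cells with *Mgp* and *Dmp1* overlapped in part: of 447 cells, 25 had both, 55 *Mgp* only and 109 *Dmp1* only.

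Pericyte-like cells were the named class with the most higher calls, 5 of 9 tested, where 8.13% of all genes were higher. The class was led by *Fst*, *Abcc9* and *Cemip*, had 3 of 6 pericyte markers in at least 5% of cells, at a summed 1785 CPM. It also had 4 of 5 markers of *Coch* fibrocytes (8479 CPM), 4 of 7 fibroblast markers (1770 CPM) and 2 of 8 bone-forming markers (1176 CPM, with *Sp7* and *Dlx5* at 0) in at least 5% of cells, and their part in the results below was not tested. *Phex* was at 189 and 239 CPM, in 23.8% and 24.8% of cells, and *Dmp1* at 161 and 169.8 CPM, in 17.9% and 16.9% of cells, whereas OHC-like cells had at most 1.44 CPM of *Phex* and 5.05 CPM of *Dmp1*. The median depth was 1535 and 1268.5 UMIs in pericyte-like cells, shallower than in OHC-like cells.

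*Phex* was higher in pericyte-like cells by 5.34 on the log2 scale (SE 0.56, adjusted p = 0.000204), *Dmp1* by 3.92 (SE 0.44, adjusted p = 0.000340), *Mgp* by 3.49 (SE 0.47, adjusted p = 0.000901) and *Sparc* by 1.02 (SE 0.12, adjusted p = 0.000426). *Phex* and *Dmp1* were in the same cell in 30 cases, *Dmp1* alone in 53 and *Phex* alone in 86. *Mgp* rested on few cells, 11 of 223 in P28 replicate 1 (68.1 CPM) and 14 of 254 in replicate 2 (220.3 CPM), and 1 cell of replicate 2 held 54 of its 83 UMIs. *Phex* stood higher in pericyte-like cells than in the cluster led by *Coch* and *Acan*, and *Dmp1* the other way round, in both libraries and with intervals apart.

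At P14 no class was named pericyte-like. An unnamed P14 cluster of 94 cells, led by *Moxd1* and *Col1a2* and holding 5 of 6 pericyte markers, had *Dmp1* at 776 CPM (95% interval 652 to 918) in 38 cells and *Phex* at 674 CPM in 45 cells, with both in 29 cells. *Sp7*, *Dlx5* and *Col1a1* had no UMI there, *Bglap* had 1 and *Bglap2* 0. *Mgp* was at 1824 CPM in 25 cells, of which 1 held 146 of 322 UMIs, *Spp1* at 238 CPM and *Sparc* at 4607 CPM. Of the 8 bone-forming markers 2 were in at least 5% of its cells, at a summed 8210 CPM, close to the 8286 CPM of the P14 cluster led by *Coch* and *Col1a2*, where all 8 were.

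*Alpl* was low outside the bone-forming cell-like cells. TBC-like cells, which line the underside of the basilar membrane, had 26.1 CPM in the P14 library and 27.3 and 25.8 CPM in the P28 libraries, in 8.43% to 9.79% of cells, and all other cells had 4.44, 2.47 and 12.5 CPM. *Alpl* was higher there by 2.27 on the log2 scale (SE 0.38, adjusted p = 0.000408), in 3 of 3 libraries. OHC-like cells had 0, 1.22 and 2.16 CPM. At P28 the cluster led by *Coch* and *Acan* had similar levels, 35.5 and 35.0 CPM, as had pericyte-like cells with 37.8 and 18.6 CPM. Intermediate cell-like cells of P28 replicate 2 had 167 CPM, in 29.1% of cells.

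*Mgp* in TBC-like cells turned on the P14 library. The P14 level was 931 CPM, from 17 of 65 cells with 91 of 214 UMIs in 1 cell, and the P28 levels were 15.1 and 25.1 CPM, where all other cells had 9.96 and 18.6 CPM. The fitted difference of 1.59 (SE 0.39, adjusted p = 0.00452) covers levels that overlapped between the class and the other cells, and its sign turned to -0.28 with the study's narrower cell limits. SC/SGC-like cells had *Mgp* at 26.7, 48.0 and 40.8 CPM on 2 to 8 UMIs, at most 2 in any cell, and were not called.

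*Sparc* was found in more cells than any other member. Among the classes tested at P28 its level was highest in DC/PC-like cells, and the bone-forming cell-like cells, which were not tested, had 9663 CPM in replicate 2. In DC/PC-like cells, the supporting cells of the outer hair cells, the P14 library gave 9455 CPM and the P28 libraries 3149 and 3412 CPM, and all other cells had 2417, 509 and 549 CPM. The difference was 2.50 on the log2 scale (SE 0.18, adjusted p = 5.55e-07), with no overlap. ISC/HeC/OSC-like cells had 4431, 776 and 725 CPM. They were above the other cells in each library (log2 fold change 1.15, SE 0.20, adjusted p = 0.0142), but levels overlapped across libraries and the call was lost without P28 replicate 1 (adjusted p = 0.0783) and with the study's cell limits (adjusted p = 0.0644).

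Among the other classes, IHC-like cells had *Sparc* at 1216, 1219.6 and 1214 CPM in the 3 libraries, and OHC-like cells 229, 182 and 155 CPM. Fibrocyte with *Coch*-like cells were higher by 0.91 (SE 0.23, adjusted p = 0.0230), a call lost without TMM scaling (0.67, adjusted p = 0.0668) and with the study's cell limits (0.19, adjusted p = 0.384), and the sign turned to -0.14 with the other classes weighted equally. *Sparc* was lower in macrophage-like cells (log2 fold change -1.36, SE 0.33, adjusted p = 0.0152), in granulocyte-like cells (-1.66, SE 0.50, adjusted p = 0.0432) and in OHC-like cells (-2.38, SE 0.52, adjusted p = 0.0174). The granulocyte-like libraries were far apart, at 30.6 and 232 CPM, and the call was lost with DESeq2 (adjusted p = 0.148) and with the top 5% of doublet scores left out (adjusted p = 0.0748). Without the replicate block the calls in DC/PC-like (adjusted p = 0.0939), ISC/HeC/OSC-like (0.307) and macrophage-like cells (0.119) were lost. The 5 higher and 4 lower calls of *Sparc* leave 9 of 18 groups without a call.

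The ages could be set side by side in 10 classes, with no test, since P14 had 1 library and its age cannot be told apart from that library. P14 and P28 were clustered separately. A P14 level was counted as outside the P28 libraries where its exact 95% Poisson interval met neither of theirs. Of 100 gene and class pairs, 47 had at least 10 UMIs, and among them 10 were higher and 7 lower at P14. Over all genes 6.99% of such pairs were higher and 6.36% lower.

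*Sparc* made up 7 of the 10 higher pairs. In ISC/HeC/OSC-like cells it was at 4431 CPM at P14 and 750 ± 36.7 CPM at P28 (SD, n = 2), a ratio of 5.90. In TBC-like cells it was at 2900.3 CPM at P14 and 385 ± 3.99 CPM at P28, a ratio of 7.53, and in RM-like cells the ratio was 5.46. DC/PC-like cells had a ratio of 2.88, fibroblast-like cells 2.30 and macrophage-like cells 1.75. The level of OHC-like cells was outside as well, but its ratio of 1.36 was close to the 1.28 of red blood cell-like cells, which were not outside. IHC-like and SC/SGC-like cells had ratios of 0.999 and 1.03.

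**Figure D5:**
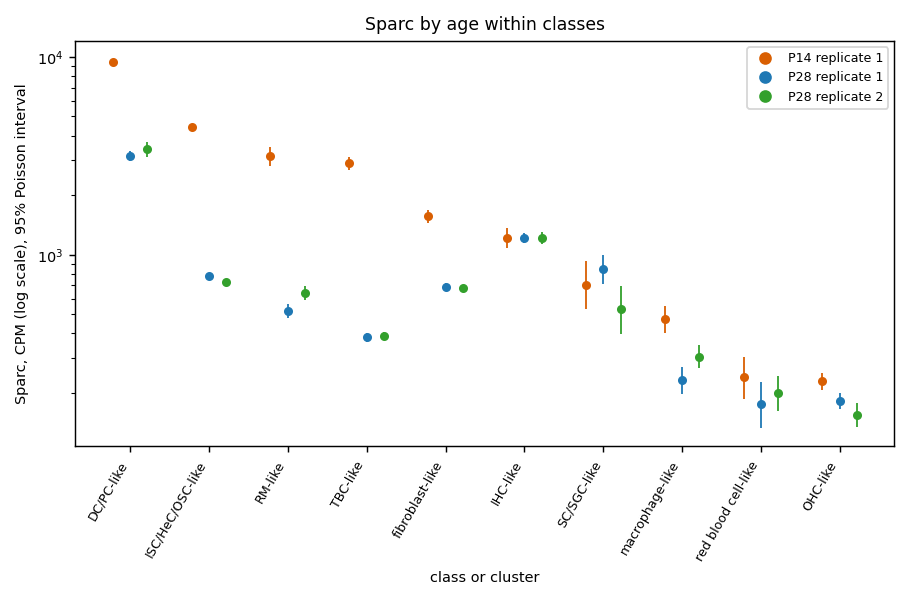
*Sparc* level in CPM (logarithmic axis) by class in the P14 library and both P28 libraries, with exact 95% Poisson intervals. The P14 point lies above both P28 points in DC/PC-like, ISC/HeC/OSC-like, RM-like, TBC-like, fibroblast-like and macrophage-like cells, and beside them in IHC-like cells, at 1216, 1219.6 and 1214 CPM.

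The other higher pairs were *Mgp* in TBC-like cells (ratio 46.3) and in fibroblast-like cells, where 28.4 CPM at P14 stood against 1.62 and 4.16 CPM at P28 (ratio 9.82), and *Ibsp* in red blood cell-like cells, where 1 cell held all 17 UMIs. All 7 lower pairs were *Spp1*. In DC/PC-like, ISC/HeC/OSC-like, OHC-like, TBC-like and fibroblast-like cells the P28 levels ran from 34.3 to 168 CPM, below those of red blood cell-like cells at P28, and the whole P14 library held 48.2 CPM of *Spp1* against 756 and 1012 CPM at P28. SC/SGC-like cells of P28 replicate 2, at 479 CPM, were the exception. *Bglap*, *Bglap2*, *Dmp1*, *Phex*, *Mepe* and *Alpl* gave no pair outside.

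The genes whose levels ran most like each member were taken from 52 sums of a class in a library, of at least 20 cells each, by Pearson correlation of log2(CPM + 10). Sums of the same library share its depth and free RNA, so the values only describe these sums. *Ifitm5*, *Col1a1* and *Sgms2* were the 3 nearest for *Bglap* (r = 0.96, 0.92 and 0.91), for *Bglap2* (0.95, 0.92 and 0.91) and for *Ibsp* (0.90, 0.84 and 0.87). *Alpl* had *Ifitm5* (0.78), *Sgms2* (0.76) and *Smpd3* (0.75). *Dmp1* had *Smpd3* (0.84), *Omd* (0.83) and *Zfp469* (0.83), and *Phex* had *Col24a1* (0.88), *Omd* (0.84) and *S1pr3* (0.82).

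The remaining members had other neighbours. *Mgp* ran with *Piezo2* (0.88), *Mdga2* (0.83) and *Slco1a4* (0.81), *Sparc* with *Cpq* (0.81), *Wls* (0.76) and *Mmp14* (0.76), and *Spp1* with *Glrb* (0.76), *Cyp2u1* (0.74) and *Zfp281* (0.73). *Col24a1*, *Col1a1* and *Ifitm5* are also markers by which the bone-forming cell-like cluster was named. Without P28 replicate 2, which held 29 of its 30 cells, 7 of the 27 neighbours were the same.

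A further 32 genes of mineralization were tested in the same way, in 4 lists. Of the genes that handle phosphate and pyrophosphate, 9 of 60 tested pairs were higher and 20 lower in the classes with 3 libraries, 5 and 6 of 24 in the P28 classes and 7 and 7 of 24 in the unnamed clusters. Gla proteins and the enzymes that carboxylate them gave 12 higher and 27 lower of 70, 5 and 10 of 28, and 4 and 7 of 28. Hormones, kinases and signals of bone mineral gave 13 and 28 of 70, 5 and 10 of 28, and 6 and 10 of 28. The relatives of *Sparc* gave 10 and 40 of 70, 7 and 16 of 28, and 4 and 16 of 28. Over all genes the shares were the 13.9% higher and 18.2% lower, 14.6% and 17.9%, and 9.81% and 13.7% given above, so lower calls were the more common there too.

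Of the 32 genes, 27 were tested in each group. Higher calls numbered 10 in TBC-like, 9 in SGN-like, 8 in fibroblast-like and 8 in ISC/HeC/OSC-like cells. The share of all genes called higher in each of these classes is not given here, so their counts were not ranked. In the cluster led by *Coch* and *Acan* 11 were higher, where 8.45% of all genes were. In pericyte-like cells 10 were higher, where 8.13% of all genes were. In the cluster led by *Coch* and *Acan* they included *Enpp1*, which makes pyrophosphate (log2 fold change 3.93, SE 0.28, adjusted p = 8.56e-07), *Smpd3*, a sphingomyelinase needed for bone mineral (2.35, SE 0.66, adjusted p = 0.0233), *Fam20c*, the kinase that phosphorylates secreted phosphoproteins (1.96, SE 0.25, adjusted p = 0.000105), and the Gla protein gene *Ucma* (1.56, SE 0.17, adjusted p = 3.37e-05). Of its phosphate genes 4 of 6 tested were higher and 1 lower, and of its Gla genes 3 of 7 were higher and none lower. In pericyte-like cells *Enpp1* was again higher (2.68, SE 0.29, adjusted p = 0.000276), with the *Sparc* relative *Smoc1* (3.60, SE 0.15, adjusted p = 2.64e-06) and *Tnfrsf11b*, the decoy receptor osteoprotegerin (2.33, SE 0.17, adjusted p = 3.60e-05).

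Elsewhere single genes of the lists were called. *Fam20c* was higher in SGN-like cells (3.03, SE 0.17, adjusted p = 1.57e-06), as was the *Sparc* relative *Spock3* (6.74, SE 0.17, adjusted p = 3.53e-08). *Tnfrsf11b* was higher in TBC-like cells (2.91, SE 0.21, adjusted p = 5.13e-07), and *Galnt3*, whose enzyme glycosylates a phosphate hormone, in RM-like cells (3.13, SE 0.22, adjusted p = 9.60e-15). In the bone-forming cell-like cells, which were not tested, *Smpd3* stood at 2785 CPM in 28 of 30 cells and *Phospho1*, a phosphatase of matrix vesicles, at 0.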

How the data were processed

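The values deposited by the authors were raw UMI counts of each gene in each barcode, made with Cell Ranger (5.0.1 in the file header, 6.0.1 in the submitters' processing notes, build mm10) with no cell filter beyond its cell calling and no normalization. Every column was used. Cell Ranger counts only reads assigned to a single gene. CPM, clusters and tests were computed here. P14 cells were clustered alone and P28 cells after anchor integration (Seurat 5.3.0, R 4.3.3, 2000 variable genes without the members and lists, 30 components, resolution 1). A name needed 3 or more fixed markers with a log2 ratio of at least 1, found in at least 5% of cells. Scrublet (scanpy 1.11.5) called too few doublets to have worked, so all cells were kept, and the top 5% of scores were left out as an alternative. The study's limits of 3000 genes and 15000 UMIs were another.

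Sums were tested with edgeR 4.0.16 (TMM, default expression filter, threshold 0.05). The class and the other cells of a library come from the same animals, so the library pairs them: the block was used with 3 libraries and tried with 2. Alternatives were DESeq2 1.42.0, other filters, scaling, limits and clusterings, each library left out, and thinning to 1000 or 500 UMIs. Poisson and binomial intervals are exact, at 95%, and a count of 0 was bounded by 3 counts. In simulated data with 200 genes changed 4-fold, edgeR found 144 for fibroblast-like (13842 genes, 4 false calls) and 186 for SGN-like cells (15285 genes, 9 false calls). All genes were simulated with the same, capped spread and no difference between libraries, so these figures may be better than for the real sums. Genes named are the members, the called genes of the lists, and the 3 genes most correlated with each member of at least 100 UMIs. The members and lists were chosen with earlier results of these data known. Python packages were pandas 2.3.3, numpy 2.4.6, scipy 1.17.1 and, for figures, matplotlib 3.10.9.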

Additional observations from a re-analysis of the deposited data

Results flagged for a closer look

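*Spp1* was also present in the barcodes left out by the limits on genes and mitochondrial UMIs, which no comparison used. Its level there was 148 CPM at P14, 859 CPM in P28 replicate 1 and 1118 CPM in P28 replicate 2, and the kept cells of the same libraries had 48.2, 756 and 1012 CPM. It was flagged as a signal in barcodes outside the comparisons. In each library its counting interval there lay wholly above the interval of the kept cells. The source of this signal was not tested.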

How the results depend on the processing

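Of 399 refitted fold changes, 374 kept their direction and side of the threshold, 22 lost the call and 3 turned. Those that turned were *Mgp* in TBC-like cells, at -0.28 with the study's cell limits and -0.16 with the other classes weighted equally, and *Sparc* in fibrocyte with *Coch*-like cells, at -0.14 with that weighting. Of the recomputed levels in bone-forming cell-like cells of P28 replicate 2, 39 lay within the counting interval of the reported level and 31 outside. The latter were 7 of 10 each with resolution 2, no integration and the 30% mitochondrial limit, 8 with haemoglobin, ribosomal protein and mitochondrial genes kept out of the CPM, and 1 each with the study's cell limits and all genes allowed as variable. *Bglap* ran from 65482 to 105153 CPM. In the classes with 3 libraries the 4 higher calls became 2 with at least 10 UMIs in every sum, 1 without the replicate block and 1 with the study's cell limits, and 3 to 6 with 1 library left out. The 58 lower calls became 4 with 10 UMIs in every sum, 20 without the replicate block, 36 with the bone-forming cell-like cells left out, and 40 to 61 with 1 library left out. In the P28 classes the 9 lower calls became 1 with 10 UMIs in every sum and 15 with the replicate block, which pairs the sums of a library. In the unnamed clusters the 7 higher calls became 11 without the bone-forming cell-like cells, and the 4 lower calls became 7 with no filter, 1 with 10 UMIs in every sum and 15 with the replicate block. A filter of 10 UMIs tests fewer genes by construction, and the study's cell limits left 8 of the 10 classes with 3 libraries to test. The part of this in the counts, and the cause of the other changes, were not tested. The highest named class stayed the same for 9 of 9 members measured without P28 replicate 1, 8 without P14 and 1 without P28 replicate 2, which held the bone-forming cell-like cells, a range of 1 to 9. For *Spp1* it became marginal cell-like with the study's cell limits and with the top 5% of doublet scores left out. It became fibrocyte with *Coch*-like with the 30% mitochondrial limit and without integration, and SGN-like with all genes allowed as variable. The highest class of *Mgp* also changed with limits and clustering, and those of the other members did not. Of 27 neighbouring genes 15 remained with log2(CPM + 1) and 7 to 18 with 1 library left out. No paired analysis was possible between the ages because P14 had 1 library. At a median of 2037 to 2477 UMIs per cell, absence of a gene from a single cell says little, and intervals cover counting error only.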
